A study of Mus musculus with 16 samples.

Results

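A set of 7 S100 genes was followed across wounds of wild-type and diabetic mice: S100a8 and S100a9, which encode the subunits of the alarmin calprotectin, with S100a7a, S100a3, S100a4, S100a6 and S100a10. The probes were all those that a RefSeq table named with these symbols, which gave 8 probes for the 7 genes, of 39429 probes and 20832 gene symbols on the array. S100a4 had 2 probes and every other member had 1. The genes were chosen from their values on these same arrays, so their levels and differences are a description, and no p is given for them.

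RNA came from whole homogenates of full-thickness dorsal wounds with the skin around them. The WT group was female C57BL/6J mice aged 10 to 12 weeks. The other 3 groups were female db/db mice on the C57BLKS/J background, aged 10 weeks, homozygous for the db mutation of the leptin receptor, Lepr, and they were left untreated (db/db), given sesame oil (db/db + vehicle), or given estradiol benzoate at 0.75 μg/g/day in the oil (db/db + estrogen). WT and db/db mice thus differed in strain as well as in diabetes, which cannot be told apart here. Each group had 2 arrays labelled day 7 and 2 labelled day 14, described as biological replicates, which made 16 one-colour arrays.

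The day labels went against the values. They were checked against the fold changes of single genes that the study tabulated by day. Of 75 such fold changes, 0 lay within 1% of the fold change on the arrays with that day's label, and 75 lay within 1% of it on the arrays labelled with the other day. They covered 40 fold changes of db/db vs WT, 18 of db/db + estrogen vs db/db and 17 of db/db + vehicle vs db/db. The arrays are named below by their labels, and "labelled day 7" may stand for wounds taken on day 14 and the reverse. All arrays of 1 labelled day were scanned on the same scan day and none of the other labelled day were, so that labelled day and scan day cannot be told apart either.

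S100 proteins are small calcium-binding proteins. Inside the cell they bind and regulate other proteins, and several are released by stressed or dying cells as alarmins that signal through Toll-like receptor 4 and the receptor Ager. In wounded skin S100a8 and S100a9 are made by neutrophils and monocytes and also by keratinocytes of the wound edge. All 7 genes lie on chromosome 3. In the order of protein-coding genes S100a3, S100a4, S100a6, S100a7a, S100a8 and S100a9 lie within 8 consecutive genes, with S100a2 and S100a5 between them, and S100a8 and S100a9 are direct neighbours, while S100a10 lies at place 66 counted from S100a3.

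S100a8 and S100a9 shared large differences and were well above background on 16 of 16 arrays, so the 250 bases before their annotated starts are shown. The sequences are from RefSeq (GRCm38.p6), 5′ to 3′ in the direction of the gene, at chr3:90668821-90669070 on the plus strand for S100a8 and at chr3:90695722-90695971 on the minus strand for S100a9. Capitals mark matches to 4 motifs that were searched on both strands.

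S100a8: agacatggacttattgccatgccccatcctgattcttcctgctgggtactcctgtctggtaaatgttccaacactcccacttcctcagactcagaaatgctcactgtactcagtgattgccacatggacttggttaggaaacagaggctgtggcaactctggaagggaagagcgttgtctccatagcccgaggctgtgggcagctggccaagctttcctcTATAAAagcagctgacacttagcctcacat

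S100a9: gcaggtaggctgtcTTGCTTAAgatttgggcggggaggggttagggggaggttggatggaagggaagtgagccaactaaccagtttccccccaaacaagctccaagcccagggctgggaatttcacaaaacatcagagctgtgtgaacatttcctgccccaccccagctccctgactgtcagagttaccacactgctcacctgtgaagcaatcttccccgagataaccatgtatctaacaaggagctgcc

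The motifs were a TATA box (TATAAA), an AP-1 motif (TGANTCA), a C/EBP motif (TTGCNNAA) and the estrogen response element (GGTCA and, after 3 free bases, its reverse complement TGACC). With bases counted from the start, S100a8 held the TATA box at base -30, and S100a9 held the C/EBP motif at base -236 and a TATA box at base 1, outside the stretch printed. In the same window of 250 bases before and 50 after a start, the TATA box was found in 13.6% of 32851 promoters, the AP-1 motif in 7.81%, the C/EBP motif in 10.8% and the estrogen response element in 0.07%. S100a4 held a TATA box at base -31 and 1 of the 4 annotated starts of S100a3 held it at base -52, and the promoters of S100a6 and S100a7a held none of the 4 motifs. S100a10 had 0 annotated starts among these promoters and was not searched. None of the other members held the AP-1 motif or the estrogen response element as spelled here. This says only that these letters are not in these windows.

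Levels are given as log2 of the processed signal minus the log2 of the array's 75th percentile, so that 0 is the 75th percentile of that array. The 75th percentile ran from 1091 to 2549 signal units over the arrays, each array had 71.1% to 79.6% of its probes well above background, no spot was saturated, and duplicate arrays correlated at r = 0.980 to 0.993. Krt14, the keratin of basal epidermis, and Col1a1, the collagen of dermal fibroblasts, were well above background on 16 of 16 arrays, so that both layers of skin were in the samples. In whole-wound RNA fewer cells of a type and less RNA per cell cannot be told apart. The number of arrays limits the precision, since 2 arrays against 2 cannot give an exact two-sided permutation p below 0.333. Differences are therefore from limma's fit to all 16 arrays, with the standard error (SE) that the 8 groups share.

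S100a8 was low in the labelled day 7 wounds of estrogen-treated mice and high in every other group. Its level on labelled day 7 was 6.56 and 6.55 in WT, 7.14 and 7.46 in db/db, 7.61 and 7.31 in db/db + vehicle, and 0.92 and 2.69 in db/db + estrogen. On labelled day 14 it was 6.90 and 7.38 in WT, 6.26 and 6.72 in db/db, 7.09 and 7.18 in db/db + vehicle, and 6.94 and 6.70 in db/db + estrogen. Both estrogen arrays of labelled day 7 lay below all 14 others, which spanned 6.26 to 7.61. The difference between db/db + estrogen and db/db on labelled day 7 was -5.49 (SE 0.45), that is 45.1-fold lower, and against db/db + vehicle it was -5.66 (SE 0.45), or 50.4-fold lower. Against WT of the same labelled day the mean was lower by 4.75.

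S100a9, whose protein pairs with that of S100a8, followed the same course. Its labelled day 7 level was 7.72 and 7.66 in WT, 7.60 and 7.91 in db/db, 7.82 and 7.92 in db/db + vehicle, and 2.02 and 4.19 in db/db + estrogen. The labelled day 14 values were 7.65 and 8.05 in WT, 7.41 and 7.40 in db/db, 7.53 and 7.78 in db/db + vehicle, and 7.64 and 7.65 in db/db + estrogen. The 14 arrays outside the labelled day 7 estrogen group stayed within a narrow span, from 7.40 to 8.05. With estrogen on labelled day 7 the difference was -4.65 (SE 0.52) against db/db and -4.76 (SE 0.52) against db/db + vehicle, 25.1-fold and 27.2-fold lower.

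The estrogen arrays differed between themselves more than any other pair did for these genes: their standard deviation was 1.26 for S100a8 and 1.54 for S100a9 (n = 2), with replicate 1 the lower for both. Each slide of labelled day 7 carried 1 array of every group, so that the difference could be read within a slide. For estrogen against db/db it was -6.22 and -4.76 for S100a8 and -5.58 and -3.72 for S100a9. Without estrogen replicate 1 the fitted differences were -4.61 for S100a8 and -3.56 for S100a9, and without estrogen replicate 2 they were -6.38 and -5.73. The direction was thus the same on both slides and without either array, and the size depended on which array was kept.

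**Figure D1:**
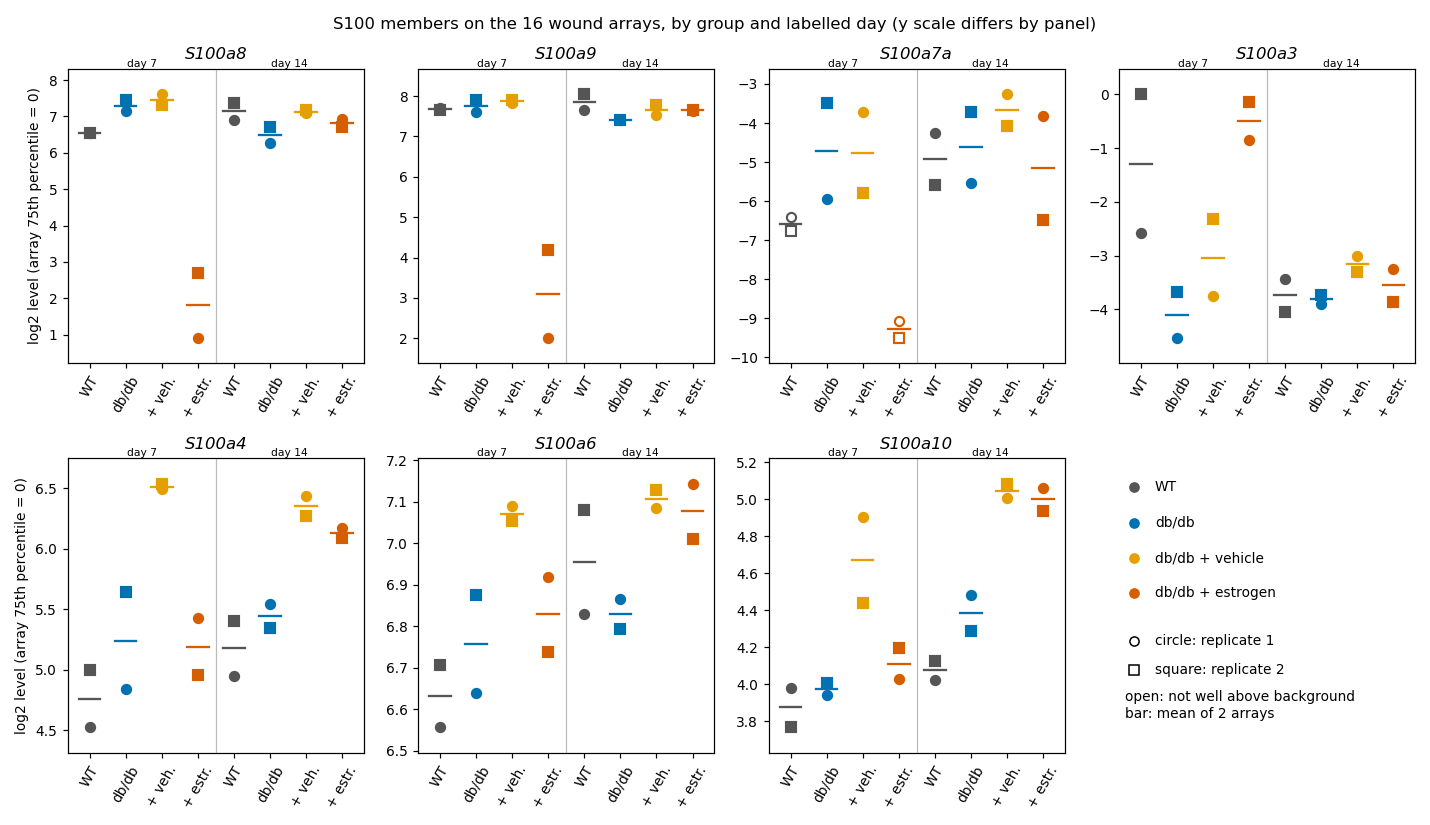
Log2 level of each member (y axis, 75th percentile of the array at 0, scale differing by panel) on the 2 arrays of each group (x axis) for the labelled days; open symbols are arrays where the probe was not well above background and bars are means of 2 arrays. S100a8 and S100a9 drop in the estrogen group of labelled day 7 alone among the 8 groups, to 0.92 and 2.69 and to 2.02 and 4.19.

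With the oil alone neither gene showed this difference. Between db/db + vehicle and db/db on labelled day 7 S100a8 differed by 0.16 (SE 0.45) and S100a9 by 0.12 (SE 0.52), and the arrays of the groups overlapped. On labelled day 7 untreated diabetic and WT wounds lay nearer to each other than to the estrogen group. On labelled day 14 the estrogen mean lay between those of db/db and WT for both genes. For db/db vs WT S100a8 differed by 0.75 (SE 0.45) on labelled day 7 and by -0.65 (SE 0.45) on labelled day 14, and S100a9 by 0.06 and -0.45 (SE 0.52 for both). On labelled day 14 no slide carried both WT and untreated db/db arrays. In the order of the 8 group means, both genes were lowest in the labelled day 7 estrogen group, next in db/db labelled day 14, and highest in db/db + vehicle labelled day 7. Of the 7 pairs of neighbours in that order, 3 did not overlap for S100a8 and 2 for S100a9, the first step among them for both, and the rest were within the spread of their arrays.

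S100a7a, a mouse relative of the human antimicrobial protein psoriasin made by inflamed keratinocytes, was dim. On labelled day 7 it was -6.41 and -6.76 in WT and -9.07 and -9.49 in db/db + estrogen, and none of these 4 arrays was well above background. It was -5.95 and -3.49 in db/db and -3.73 and -5.79 in db/db + vehicle, and on labelled day 14 it ran from -6.49 to -3.26 over the 8 arrays, all well above background. The probe was thus not well above background in WT or with estrogen on labelled day 7, and values there have no order. With estrogen the signal was at least 5.76-fold lower than in db/db and at least 5.61-fold lower than in db/db + vehicle, where the lowest signal well above background on each array stood in for the dim probe, and in db/db it was at least 3.46-fold higher than in WT. The measured differences were -4.56 and -4.52 for estrogen (SE 1.09), and with normexp background correction they were -0.83 and -0.90. For db/db vs WT the measured difference was 1.86 (SE 1.09), and 0.29 with normexp. Within slides 1 and 2 it was 0.46 and 3.27. The bounds thus hold for the group means in the main processing only. Among the labelled day 14 groups the arrays of every compared pair of groups overlapped, with differences from -1.50 to 0.96.

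S100a3, which encodes a protein of the hair cuticle, went the other way. On labelled day 7 it was -2.58 and 0.00 in WT, -4.52 and -3.68 in db/db, -3.75 and -2.33 in db/db + vehicle, and -0.86 and -0.15 in db/db + estrogen. Its 8 arrays of labelled day 14 lay between -4.04 and -3.00. The estrogen arrays of labelled day 7 thus lay among the WT arrays of that day and above all other db/db arrays. The difference was 3.60 (SE 0.74) against db/db and 2.53 (SE 0.74) against db/db + vehicle, while db/db stood at -2.81 (SE 0.74) against WT. The WT arrays differed by 2.58 from each other, and the db/db vs WT difference was -4.10 without WT replicate 1 and -1.52 without WT replicate 2. Against db/db + vehicle the estrogen difference was 1.82 without vehicle replicate 1.

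S100a4, a protein of fibroblasts and leukocytes linked to cell motility, was highest in the oil-treated wounds of both labelled days. The level on labelled day 7 was 4.53 and 4.999 in WT, 4.84 and 5.64 in db/db, 6.49 and 6.54 in db/db + vehicle, and 5.43 and 4.96 in db/db + estrogen. The labelled day 14 levels were 4.95 and 5.40 in WT, 5.55 and 5.35 in db/db, 6.43 and 6.27 in db/db + vehicle, and 6.17 and 6.09 in db/db + estrogen. Oil and estrogen arrays stood together above db/db and WT on labelled day 14, whereas on labelled day 7 the oil arrays stood alone. Vehicle exceeded db/db by 1.28 (SE 0.28) on labelled day 7 and by 0.90 on labelled day 14, and estrogen differed from vehicle by -1.32 and -0.22. Without db/db replicate 1 the labelled day 7 difference between vehicle and db/db was 0.88. The second S100a4 probe gave 1.47 and 1.07 for vehicle against db/db and -1.61 and -0.28 for estrogen against vehicle (SE 0.30). The directions were those of the first probe, but on labelled day 14 the second probe was over 2-fold higher with vehicle and was called, which the first was not.

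S100a10, the partner of annexin A2 at the cell membrane, showed a similar course with smaller steps. Its labelled day 7 levels were 3.98 and 3.77 in WT, 3.94 and 4.01 in db/db, 4.91 and 4.44 in db/db + vehicle, and 4.03 and 4.20 in db/db + estrogen. Its labelled day 14 levels were 4.02 and 4.13 in WT, 4.48 and 4.29 in db/db, 5.01 and 5.08 in db/db + vehicle, and 5.06 and 4.94 in db/db + estrogen. The oil arrays of either labelled day lay above the untreated and WT arrays of that day. The estrogen arrays stood level with the oil arrays on labelled day 14. On labelled day 7 they lay below the oil arrays and slightly above the untreated and WT arrays. Vehicle exceeded db/db by 0.70 and 0.66 (SE 0.17) on the labelled days, and estrogen differed from vehicle by -0.56 on labelled day 7 and by -0.05 on labelled day 14.

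S100a6, calcyclin, which binds annexins and the calcyclin-binding protein, had the narrowest span of group means among the members. Its 16 arrays lay between 6.56 and 7.14, and its group means spanned 0.47, from 6.63 in WT labelled day 7 to 7.11 in db/db + vehicle labelled day 14. No pair of neighbours in the order of its group means was free of overlap. Its differences between groups ran from -0.24 to 0.31 (SE 0.15), and the sign of its db/db vs WT difference on labelled day 14, -0.12, turned to 0.09 with quantile normalization.

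**Figure D2:**
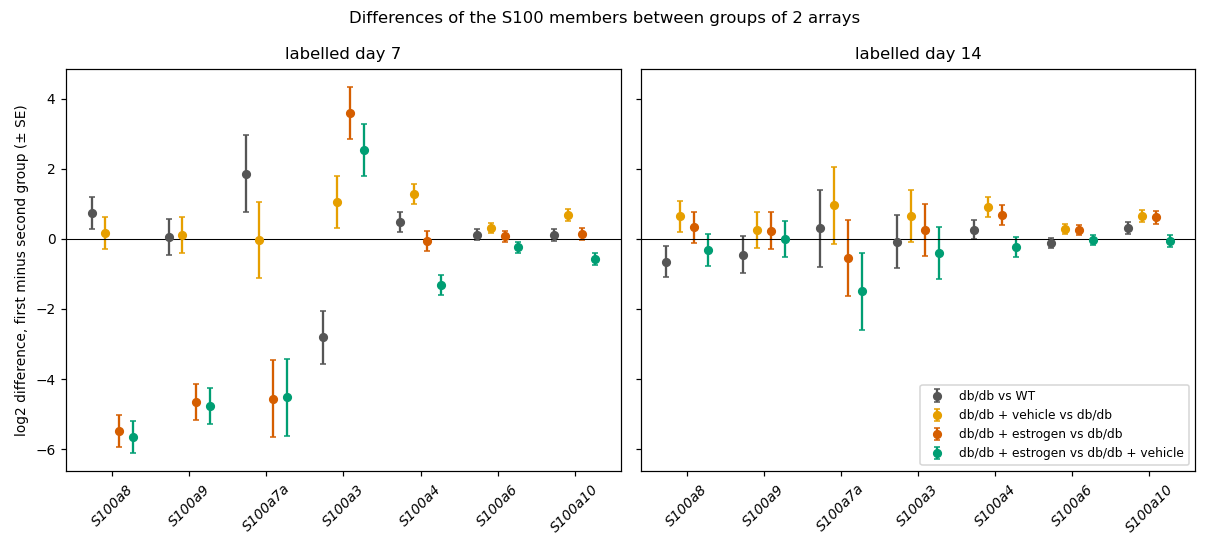
Log2 difference between 2 groups of 2 arrays (y axis, first minus second group, bars are the SE of limma's fit) for the 7 members (x axis) in 4 comparisons on each labelled day. On labelled day 7 the comparisons with estrogen reach -5.66 for S100a8 and 3.60 for S100a3, and on labelled day 14 the differences of all 7 members lie between -1.50 and 0.96.

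The calls of the members are given only beside those of the whole array, since the choice of the genes used them. A probe was called where limma's unadjusted p was below 0.05 and the fold change above 2. On labelled day 7, 1 of 7 members (S100a3) was called in db/db vs WT, where 14.1% of the probes tested were called. In db/db + estrogen vs db/db 4 were called (S100a3, S100a7a, S100a8 and S100a9) beside 9.91% of probes, in db/db + vehicle vs db/db 1 (S100a4) beside 4.82%, and in db/db + estrogen vs db/db + vehicle 5 (those 4 and S100a4) beside 8.98%. Through the brighter S100a4 probe limma called 0 of 7 on labelled day 14 in each comparison, beside 17.9% of probes in db/db vs WT, 3.91% with estrogen against db/db, 7.51% with vehicle against db/db and 0.984% with estrogen against vehicle. At an unadjusted p below 0.05 without the fold threshold the labelled day 14 counts were 0, 2, 2 and 0, the 2 being S100a4 and S100a10 both times, beside 34.8%, 8.93%, 17.5% and 5.38% of probes. At an adjusted p below 0.05 the labelled day 7 counts were 1, 4, 0 and 3 of 7 in the same order (S100a4, S100a8 and S100a9 in the last), beside 13.2%, 5.83%, 0.158% and 3.07% of probes, and the labelled day 14 counts were 0 throughout, beside 19.5%, 0.0991%, 0.2% and 0%. On labelled day 7 S100a7a was not well above background on either estrogen array. Its calls there, the adjusted one included, thus passed the filter only through the other group. With all 4 arrays required to be well above background, 3 members were called with estrogen against db/db and 4 against vehicle. Beside them 8.10% and 7.43% of probes were called. Comparisons with untreated db/db share the same db/db arrays.

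Some members followed like courses. Across the 16 arrays the closest pair was S100a8 and S100a9, with a Pearson correlation of 0.987, which was 0.710 over the 14 arrays without the labelled day 7 estrogen group. S100a4 and S100a6 correlated at 0.896, and S100a4 and S100a10 at 0.834, and both values moved little without those arrays, to 0.893 and 0.842. S100a3 ran opposite to S100a8, at -0.674 over 16 arrays and -0.293 over the 14. These correlations describe arrays that share groups, slides and scan days, and carry no test.

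The genes outside the members most like S100a8 among 16921 genes were Krt6b at 0.957, Klk13 at 0.936, Lce3a at 0.933, Sprr2i at 0.930 and Gm5478 at 0.928, and for S100a9 they were Krt6b at 0.955, Krt16, Gm5478, Klk13 and Lce3a. Krt6b and Krt16 are keratins of injured epidermis, and Lce3a and Sprr2i encode proteins of the cornified envelope. Without the 2 labelled day 7 estrogen arrays the correlation of Krt6b with S100a8 was 0.222 and with S100a9 0.015, so that its likeness lay mostly in those 2 arrays. Over the 5 genes named for each, the correlations without those arrays ran from 0.222 to 0.561 (Klk13) for S100a8. For S100a9 they ran from -0.051 (Gm5478) to 0.386 (Krt16). For S100a7a the closest were Klk10 at 0.955, Lce3f, Sprr2k, Klk12 and Slk, and Klk10 stayed at 0.914 without those arrays. The genes most like S100a3 were the hair follicle keratins Krt27 at 0.952, Krt71, Krt28, Krt25 and Krt31, and Krt27 stayed at 0.938. Those most like S100a4 were Ino80c at 0.919, Nsmce1, Slc35d2, Hint1 and Mtmr2, those most like S100a6 were Nsmce1 at 0.926, Slc35d2, Rpp21, Ewsr1 and Brip1, and those most like S100a10 were Rras2 at 0.916, Hdgf, Ackr3, Mpp6 and Ada.

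Lists of cell type markers were read beside the members. On labelled day 7 limma called 14.1% of all probes in db/db vs WT and 9.91% with estrogen against db/db. It called 4.82% with vehicle against db/db and 8.98% with estrogen against vehicle. These shares stand beside the marker counts of that labelled day. S100a8 and S100a9 are made by neutrophils and by activated keratinocytes. Of 9 wound-activated keratinocyte markers, 0 were called by limma in db/db vs WT on labelled day 7 (0 also at an unadjusted p below 0.05 alone), 8 fell with estrogen against db/db and 9 fell with estrogen against vehicle. With vehicle against db/db 4 of the 9 rose and their median was 1.20, while S100a8 and S100a9 differed by 0.16 and 0.12. Krt16, the brightest of them, fell by 2.82 (SE 0.38, limma adjusted p = 0.0036) against db/db, Krt6b fell by 5.04 (SE 0.54, adjusted p = 0.0012) and Sprr2d fell by 4.73 (SE 0.68, adjusted p = 0.0046). The summed level of the 9 genes, in units of the array's 75th percentile, was 422 to 528 in WT, 282 to 337 in db/db, 454.8 to 923.6 in db/db + vehicle and 39.4 to 44.9 in db/db + estrogen on labelled day 7, and 259 to 847 over the groups of labelled day 14. All 9 were well above background in every group. Of 8 basal and suprabasal markers 4 rose and 0 fell with estrogen against db/db.

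By their mean log2 level on labelled day 7, neutrophil markers were lower in db/db + vehicle than in db/db, and lower again in WT and with estrogen. Of 13 measured, 11 rose in db/db vs WT on labelled day 7, 12 fell with estrogen against db/db, and 7 fell with vehicle against db/db. Csf3r, Ltb4r1 and Retnlg were the brightest. Csf3r was not called in these comparisons, Ltb4r1 fell by 1.15 with estrogen (SE 0.41, limma adjusted p = 0.15), and Retnlg rose by 9.68 in db/db vs WT (SE 1.55, adjusted p = 0.0049) and fell by 8.29 with estrogen (adjusted p = 0.014). With oil alone the median of the 13 was -2.57, 6 were not called and 2 had differences above 0. The granule genes Ltf and Camp were the only 2 with a limma adjusted p below 0.05. Ltf fell by 6.91 (SE 0.75, limma adjusted p = 0.018) and Camp fell by 6.08 (SE 0.81, adjusted p = 0.03). S100a8 differed by 0.16 in that comparison. The summed level of the 13 genes on labelled day 7 was 57.2 to 91.7 in WT, 114 to 129 in db/db, 67.9 to 74.1 in db/db + vehicle and 42.9 to 46.7 in db/db + estrogen, and on labelled day 14 it was 23.8 to 68.3. Ngp was not well above background on either WT array of labelled day 7, and in the other groups every marker was detected. The part of keratinocytes and of neutrophils in the S100a8 and S100a9 differences was not tested.

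**Figure D3:**
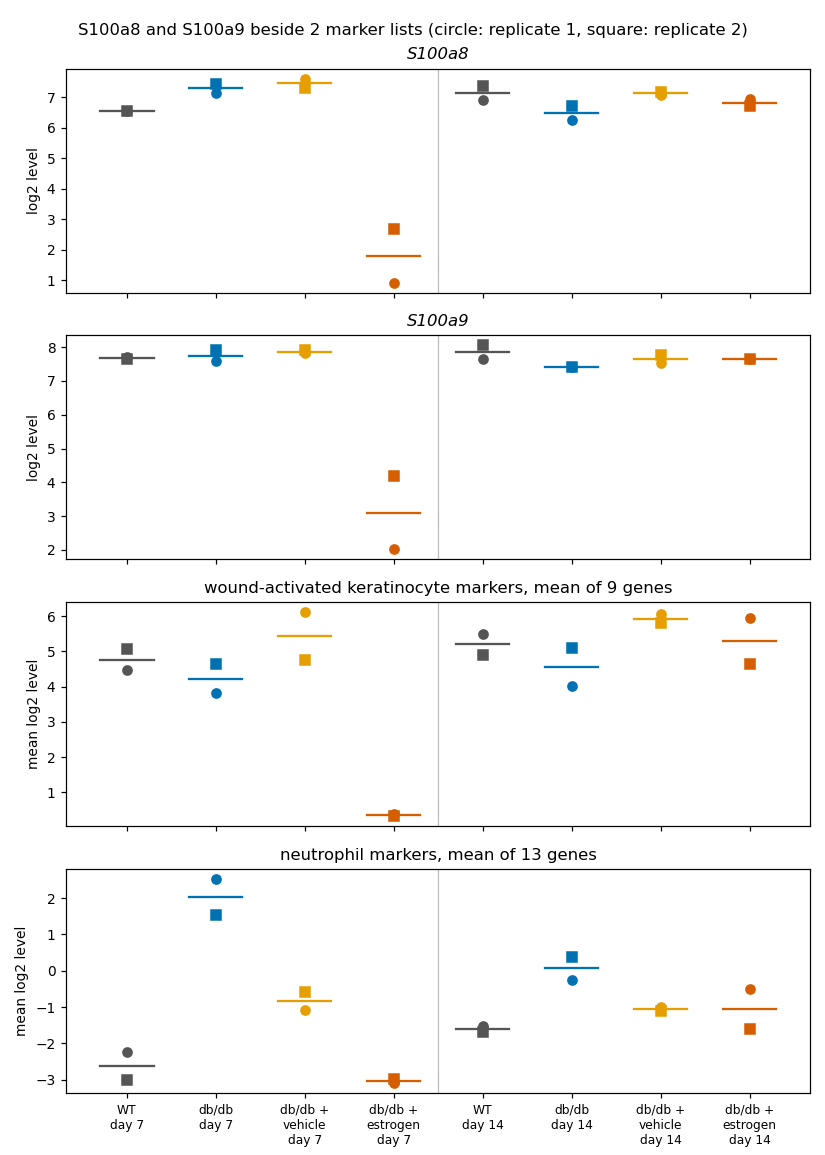
Log2 level of S100a8 and S100a9 and the mean log2 level of 9 wound-activated keratinocyte markers and 13 neutrophil markers (y axes) on each array, by group (x axis); bars are means of 2 arrays. S100a8, S100a9 and the keratinocyte markers are lowest in the estrogen group of labelled day 7, whereas the neutrophil markers are also low in WT and lower with oil than in untreated db/db.

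Hair follicle markers moved with S100a3. With estrogen on labelled day 7 all 11 passed the filter. Of them 9 rose against db/db and 7 against db/db + vehicle, beside 5.2% and 4.67% of all probes called higher. Of 10 tested in db/db vs WT, 6 fell, beside 8.4% of all probes called lower. Against db/db Krt25, Krt33a and Krt33b passed the filter only through the estrogen group, so any rise of theirs starts from background. Where tested in db/db vs WT, they passed only through WT. Tchh, Krt73 and Krt31 were the brightest. Tchh, which is also among the fused-type S100 genes below, was not called, Krt73 rose by 1.96 (SE 0.71, limma adjusted p = 0.15) and Krt31 by 1.22 (SE 0.24, adjusted p = 0.02) with estrogen against db/db. The summed level on labelled day 7 was 2.1 to 35.0 in WT, 0.6 to 1.0 in db/db, 1.3 to 4.1 in db/db + vehicle and 11.1 to 15.0 in db/db + estrogen, and 0.8 to 2.6 on labelled day 14, and Krt25, Krt33a and Krt33b were not well above background in db/db on labelled day 7. The higher of the WT sums was that of replicate 2, which also had the higher S100a3. The mean log2 level of the 11 markers correlated with S100a3 at 0.964 over 16 arrays and at 0.939 over the 14 without the labelled day 7 estrogen group. The part of hair follicles in the S100a3 difference was not tested.

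**Figure D4:**
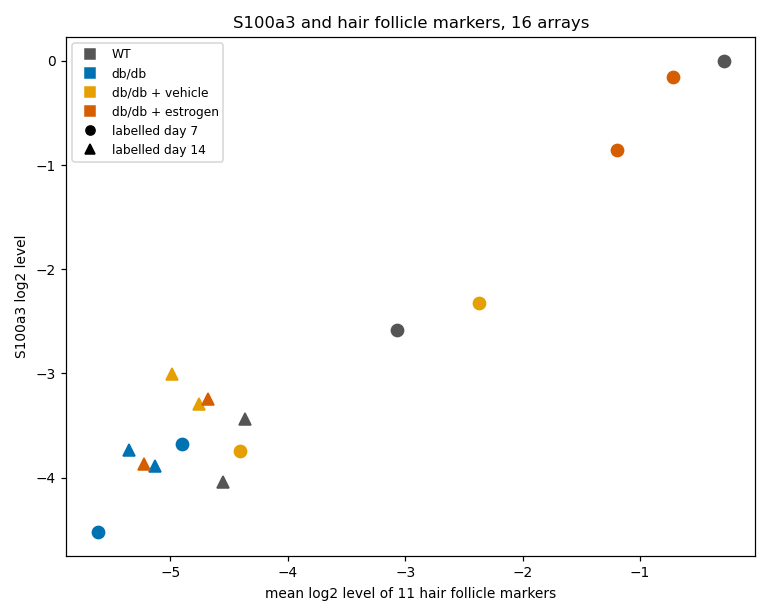
S100a3 log2 level (y axis) against the mean log2 level of 11 hair follicle markers (x axis) on the 16 arrays, coloured by group, with circles for labelled day 7 and triangles for labelled day 14. The 2 estrogen arrays of labelled day 7 and WT replicate 2 of that day lie at the upper right, and every array of labelled day 14 lies at or below -3.00 for S100a3.

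Markers of the other cell types were read in the same way. On labelled day 7, of 10 monocyte and macrophage markers 6 rose and 2 fell in db/db vs WT, and 1 rose and 1 fell with estrogen against db/db. In that comparison 1 of 8 fibroblast markers rose (Fap, by 1.33, limma adjusted p = 0.024) and 1 of 6 T cell markers rose. The median of the 8 fibroblast markers was 0.19 beside 0.04 for all probes. For vessels 0 of 5 and for adipocytes 0 of 5 were called by limma (1 and 0 at an unadjusted p below 0.05). Of 6 Schwann cell and melanocyte markers 3 rose. The share of all probes called was 14.1% in db/db vs WT and 9.91% with estrogen against db/db. S100a4, which fibroblasts and macrophages make, correlated with the mean of the fibroblast markers at -0.458 and of the monocyte and macrophage markers at 0.340 over the 16 arrays, and their part in its differences was not tested.

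The genes that the choice of members did not use were tested in the same fit, with p adjusted over all probes of a comparison. These were 10 other single S100 genes, 6 fused-type S100 genes of the epidermal differentiation complex, 7 receptors and adaptors and 9 intracellular binding partners. Over the 8 comparisons limma gave 28 calls at the unadjusted threshold and 14 at an adjusted p below 0.05. In the order used for the members, the unadjusted calls were 7, 6, 3 and 4 on labelled day 7. Beside them 14.1%, 9.91%, 4.82% and 8.98% of all probes tested were called. On labelled day 14 they were 3, 1, 3 and 1, beside 17.9%, 3.91%, 7.51% and 0.984%. The adjusted share of all probes ran from 0% to 19.5% over the comparisons.

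Among receptors the greatest changes were in Cd14, the co-receptor that hands ligands to Toll-like receptor 4. It was 1.54 and 0.48 in WT, 4.40 and 4.30 in db/db, 3.37 and 3.08 in db/db + vehicle and 1.26 and 1.61 in db/db + estrogen on labelled day 7. The labelled day 14 arrays gave 2.25 and 1.28 in WT, 4.45 and 4.49 in db/db, 3.70 and 3.34 in db/db + vehicle and 3.51 and 2.62 in db/db + estrogen. Untreated db/db arrays were the highest on both labelled days. Cd14 is made by monocytes, macrophages and neutrophils, and on labelled day 7 the neutrophil markers were likewise higher in db/db than in WT and lower with estrogen and with oil, as counted above, while the summed level of the 10 monocyte and macrophage markers was 72.1 to 109 in WT, 152 to 162 in db/db, 116 to 128 in db/db + vehicle and 146.8 to 165.7 in db/db + estrogen, all detected. Their part in the Cd14 changes was not tested. Cd14 rose in db/db vs WT by 3.34 (SE 0.42, limma adjusted p = 0.0016) on labelled day 7 and by 2.71 (adjusted p = 0.003) on labelled day 14. With estrogen against db/db it fell by 2.91 on labelled day 7 (adjusted p = 0.0046) and fell by 1.41 on labelled day 14 (adjusted p = 0.31). With vehicle on labelled day 7 it fell by 1.13 (adjusted p = 0.29), and with estrogen against vehicle it fell by 1.79 (adjusted p = 0.051).

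Cd36, a scavenger receptor for fatty acid complexes that S100a8 and S100a9 carry, rose in db/db vs WT by 1.46 (limma adjusted p = 0.0053) on labelled day 7 and by 1.42 (adjusted p = 0.0044) on labelled day 14, and with estrogen against db/db on labelled day 7 by 1.11 (SE 0.24, adjusted p = 0.026). Tlr4 rose in db/db vs WT by 0.97 (adjusted p = 0.0079) and 0.66 (adjusted p = 0.027), under the fold threshold. Ager, the receptor for advanced glycation end products, was dim and fell by 1.12 in db/db vs WT on labelled day 14 (SE 0.32, adjusted p = 0.037), and with quantile normalization the difference was -0.31. Bsg, a receptor of S100a9, rose by 0.75 (adjusted p = 0.044) in the same comparison. Both db/db arrays of labelled day 14 lay on slide 3 and both WT arrays on slide 4, and of the 5 listed genes with an adjusted p below 0.05 in db/db vs WT there (Cd14, Cd36, Tlr4, Ager and Bsg) only 1, Cd36, kept it in limma's fit with the slide as a fixed block, and 5 did with the slide as a random block. Ly96 and Myd88 passed no fold threshold in any comparison.

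The fused-type genes encode large proteins of the cornifying epidermis and hair that begin with an S100 domain. On labelled day 7, 3 of 6 fell in db/db vs WT (Crnn with a difference of -1.61, Hrnr of -1.51 and Rptn of -2.34, with limma adjusted p of 0.11, 0.15 and 0.11), where the median of the 6 was -1.56 beside -0.05 for all probes tested. With estrogen against db/db 1 of 6 rose and 2 fell, and the median was 1.23 beside 0.04. Rptn, repetin, was 1.74 and 2.69 in WT, -0.42 and 0.17 in db/db, 2.85 and 1.70 in db/db + vehicle and -2.81 and -2.36 in db/db + estrogen. The estrogen arrays were the lowest and the oil arrays stood with WT. Rptn fell by 4.86 with estrogen against vehicle (SE 0.88, limma adjusted p = 0.022) and fell by 2.46 against db/db (adjusted p = 0.15), and it rose by 2.40 with oil (adjusted p = 0.28). Tchhl1 fell by 3.95 with estrogen against vehicle (SE 0.77, adjusted p = 0.028) and was also called lower against db/db (adjusted p = 0.073), while Hrnr rose by 1.65 with estrogen against db/db (adjusted p = 0.19). On labelled day 14, 0 of 6 were called by limma in any comparison (0 also at an unadjusted p below 0.05), and Flg2 and Tchh were called in none on either labelled day.

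Other single S100 genes gave few calls. S100b, a marker of Schwann cells and melanocytes, was -1.42 and -1.12 in WT, -1.62 and -2.06 in db/db, -1.93 and -2.54 in db/db + vehicle and -0.71 and -0.52 in db/db + estrogen on labelled day 7, with the estrogen arrays the highest. It rose with estrogen by 1.22 against db/db (SE 0.41, limma adjusted p = 0.13) and by 1.62 against vehicle (adjusted p = 0.064), and with vehicle against db/db on labelled day 14 it fell by 1.36 (adjusted p = 0.16). The summed level of the 6 Schwann cell and melanocyte markers on labelled day 7 was 6.7 to 10.2 in WT, 1.2 to 1.5 in db/db, 1.1 to 2.2 in db/db + vehicle and 3.6 to 5.3 in db/db + estrogen, all detected, and their part in the S100b change was not tested.

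S100a16 rose with vehicle against db/db on labelled day 7 by 1.02 (limma adjusted p = 0.17) and S100a14 on labelled day 14 by 1.20 (adjusted p = 0.26). S100a5 rose by 0.87 in db/db vs WT on labelled day 7 (adjusted p = 0.04), under the fold threshold. S100g and S100a7l2, an S100A7-like gene, were at or near background: in db/db vs WT on labelled day 7 they were at least 3.09-fold and at least 1.62-fold higher (adjusted p = 0.15 and 0.16), and S100a7l2 was at least 2.66-fold higher with vehicle than in db/db on labelled day 14 (adjusted p = 0.19), where estrogen against vehicle gave -2.24 (adjusted p = 0.87). With normexp the calls of S100g and S100a7l2 in these comparisons were lost, and S100a7l2 did not rise in db/db vs WT on labelled day 7. Their bounds thus hold for the main processing only. S100a1, S100a11, S100a13 and S100z were called in no comparison. Of the intracellular binding partners Ahnak, Anxa1, Anxa2, Anxa6, Anxa11, Cacybp, Myh9, Sugt1 and Trp53, 0 of 9 were called by limma in any of the 8 comparisons through their brightest probe. At an unadjusted p below 0.05 alone there were 4 results, and at an adjusted p below 0.05 there was 1, Anxa11 in db/db vs WT on labelled day 7 (0.78, adjusted p = 0.033). For Ahnak another probe fell by 1.07 in that comparison (adjusted p = 0.026). Anxa2, the partner of S100a10, differed by 0.40 with vehicle against db/db on labelled day 7.

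**Figure D5:**
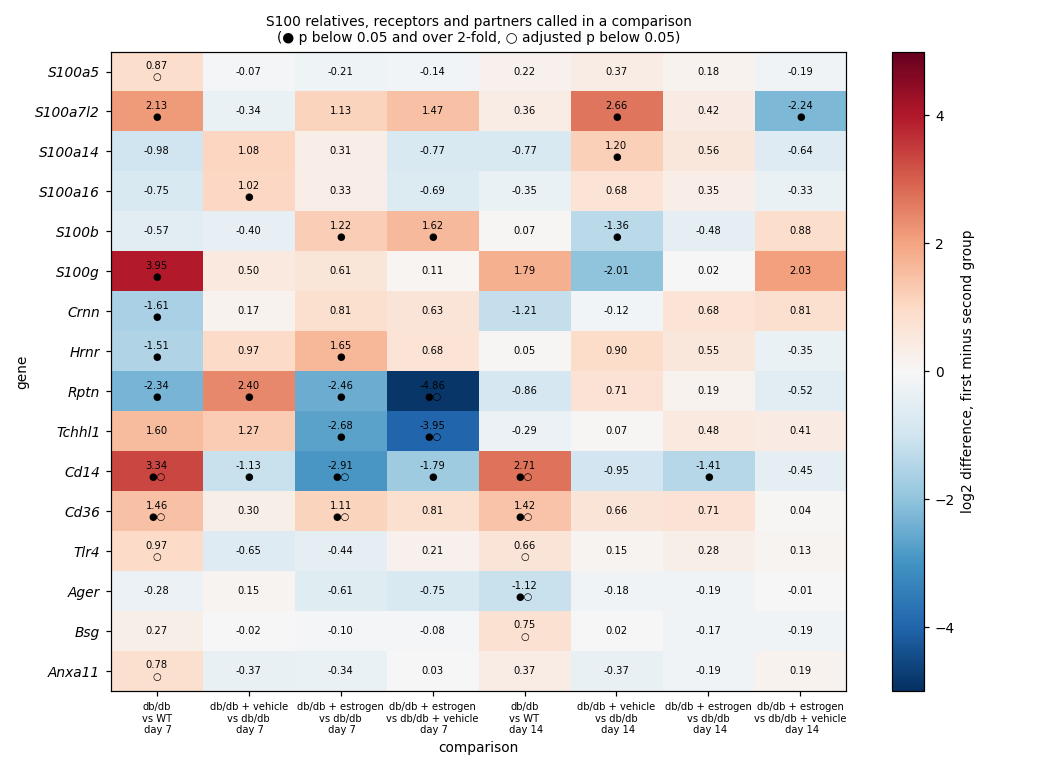
Log2 differences (colour and number in each cell, first minus second group) of the 16 tested genes outside the members that passed a threshold in at least 1 comparison (rows), in the 8 comparisons (columns); filled dots mark p below 0.05 with over 2-fold change, open dots adjusted p below 0.05. Cd14 is marked in 6 of 8 comparisons, and Rptn and Tchhl1 reach -4.86 and -3.95 with estrogen against vehicle on labelled day 7.

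Whether an effect differed between the labelled days was tested by a contrast in the same model for these 32 genes, and limma gave 0 genes at an adjusted p below 0.05 in each of the 4 comparisons. At an unadjusted p below 0.05 there were 1 in db/db vs WT, 6 in db/db + estrogen vs db/db, 3 in db/db + vehicle vs db/db and 6 in db/db + estrogen vs db/db + vehicle. For Cd14 the estrogen effect against db/db differed by -1.51 between the labelled days (SE 0.59, adjusted p = 0.43).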

How the data were processed

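The 16 one-colour Agilent arrays were scanned by the authors with Feature Extraction 11.0.1.1, and the deposited intensity values used here are its processed signal, a background-corrected fluorescence intensity. The authors also deposited a table of normalized values, made with GeneSpring 12.1, which was read as a ratio of that signal to the 75th percentile of its array, since at least 99.44% of the values of each array lay within 0.1% of that ratio, and its columns had medians of 0.139 to 0.182. No direction or centring beyond that was found, and the table served as a check.

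Control spots were left out of 44397 spots, spots of a probe were averaged, and the log2 of the signal minus that of the array's 75th percentile was taken. Of 39429 probes, 27427 were named through RefSeq accessions (GRCm38.p6), and the others stay unnamed. All 7 members matched. Flg, Ly6g, Cd68, Ly6c2, Il36a, Krt85 and Trac of the gene lists did not match and were not analysed here. Where a gene had several probes, the one with the highest mean signal was used and others are named where they disagree.

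Groups came from the sample labels. A model of the 8 groups was fitted to all arrays with limma 3.58.1 in R 4.3.3 (statmod 1.5.0 for block correlations). A probe was tested where both arrays of at least 1 compared group were well above background, and called at an unadjusted two-sided p below 0.05 with over 2-fold change. Benjamini-Hochberg adjusted p below 0.05 over all probes was the alternative. The procedure was tested on simulated data.

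The members and the gene lists were chosen with earlier results of these data known. The text names all members, the listed relatives, receptors and partners called in any comparison, the 3 brightest markers of a list that moved with a member, and the 5 genes most correlated with each member. Ltf, Camp, Fap and the markers not well above background were named after their values were seen. Alternatives were normexp background correction, quantile normalization, no filter, a filter on all 4 arrays, only the 4 arrays compared, slide or replicate number as a block, and leaving out each array.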

Additional observations from a re-analysis of the deposited data

Results flagged for a closer look

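The difference of S100a8 between db/db and WT was 0.75 on labelled day 7 and -0.65 on labelled day 14 (SE 0.45 for both). It was flagged because the 7 members were searched over all comparisons for arrays apart on both labelled days with opposite signs. Such a search also finds cases among groups without a difference, and how many was not computed. The S100a8 case is thus no evidence of a change of direction. Each db/db array lay above each WT array on labelled day 7 and below each on labelled day 14. On labelled day 14 both db/db arrays lay on slide 3 and both WT arrays on slide 4. The difference of that day could thus not be read within a slide. In db/db vs WT 3 of 7 members had arrays apart on labelled day 7, and 3 on labelled day 14. The share of all probes with arrays apart was not computed, so these counts are no result about the members. With 2 arrays against 2 no exact two-sided permutation p falls below 0.333, which is also how often groups without a difference lie apart. The difference between the days was not tested, since S100a8 was chosen on these arrays.

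S100a9 with estrogen against untreated db/db stood at -4.65 on labelled day 7 and at 0.24 on labelled day 14 (SE 0.52 for both). This case came from the same search, and the labelled day 14 value was smaller than its SE. The arrays of both groups were again apart on each day. In that comparison 5 of 7 members had arrays apart on labelled day 7 and 4 on labelled day 14. The share of all probes was likewise not computed, and these counts too are no result about the members. The difference of S100a9 between the days was not tested either.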

How the results depend on the processing

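The 4 members called with estrogen against db/db on labelled day 7 numbered 4 without any 1 array. On adjusted p, the 4 members with estrogen against db/db became 2 without either estrogen array or without db/db replicate 2, and 0 with only the 4 arrays compared, and the 3 with estrogen against vehicle became 2 without any 1 of the 4 arrays and 0 with only those arrays. In db/db vs WT on labelled day 7 the count of 1 was 0 in a fit to only the 4 arrays compared and 1 to 2 with an array left out. For vehicle against db/db it was 2 with the slide as a fixed block and 0 with adjusted p, and 0 to 1 with an array left out (without db/db replicate 1 the S100a4 call was lost). For estrogen against vehicle it was 3 with adjusted p and 4 to 5 with an array left out. On labelled day 14 the counts with an array left out were 0 to 1 for vehicle against db/db (S100a4 called without db/db replicate 1) and 0 to 1 for estrogen against vehicle (S100a7a called without estrogen replicate 1). The calls of S100a7a on labelled day 7 were lost with normexp, and it was not tested where all 4 arrays had to be well above background. The 28 calls of the other listed genes became 14 with adjusted p and 20 to 32 with an array left out. S100a7l2 in db/db vs WT on labelled day 7 went from 2.13 to -0.058 with normexp, and the cause was not tested. Over all probes, normexp took the calls on labelled day 7 from 2993 to 1878 with estrogen against db/db, from 1436 to 911 with vehicle against db/db and from 2709 to 1578 with estrogen against vehicle. On labelled day 14 it took them from 5435 to 2644 in db/db vs WT, from 1104 to 545 with estrogen against db/db, from 2180 to 1197 with vehicle against db/db and from 285 to 114 with estrogen against vehicle. With no filter the labelled day 14 counts were 1673 with estrogen against db/db and 641 with estrogen against vehicle, and with the filter on all 4 arrays 3558 in db/db vs WT and 179 with estrogen against vehicle. On adjusted p alone they were 3923, 1759, 47 and 927 on labelled day 7 and 5901, 28, 58 and 0 on labelled day 14, in the order db/db vs WT, estrogen and vehicle against db/db, and estrogen against vehicle. Without db/db replicate 2 vehicle against db/db on labelled day 7 gave 2732, and on labelled day 14 estrogen against db/db gave 2519 without estrogen replicate 2, and estrogen against vehicle gave 2087 without estrogen replicate 1 and 645 without vehicle replicate 2. The median of all probes shifted by over 0.1 in db/db vs WT alone, by -0.15 with normexp and -0.11 with no filter on labelled day 7 and by 0.19 with quantile normalization on labelled day 14.

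On labelled day 7 arrays with the same replicate number shared a slide, while on labelled day 14 number and slide did not match. The deviations of same-numbered arrays from their group means correlated at -0.26 to 0.24 over all probes. The main fit did not pair arrays. With the replicate number as a block, vehicle against db/db on labelled day 7 gave 2 called members in place of 1, S100a3 being added. In db/db vs WT on labelled day 14 the listed genes with an adjusted p below 0.05 fell from 5 to 2, Cd14 and Cd36.

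The 2 arrays of a group limit all these values. With normexp the calls of the dim probes of S100g and S100a7l2 in db/db vs WT on labelled day 7, of S100a7l2 in both comparisons of labelled day 14 and of Ager in db/db vs WT on labelled day 14 were lost, as was that of S100a16 with vehicle on labelled day 7, at 0.97, while S100a14 was called there, at 1.07.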
